A study of Mus musculus with 4 samples.

Results

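The cells described here were chondrocytes, the cells of cartilage, from the spine of control mice, compared between 12–16 months and 3 months of age. They were taken from 2 of the 4 single-cell RNA libraries of the series, those labelled control at each age, and each age was measured in 1 library. A cell was counted as a chondrocyte where it held over 750 unique molecular identifiers (UMIs, each standing for a captured RNA molecule), over 500 detected genes, under 7% of UMIs from mitochondrially encoded (mt-) genes, at least 1 UMI of Sox9 and at least 3 of Acan. By this rule there were 651 control chondrocytes, 562 at 3 months and 89 at 12–16 months, of 717 and 135 cells that passed the general limits and of 922 and 163 barcodes. The whole series held 2172 barcodes, of which 1757 passed. By the labels the control mice were Prss56Cre/+;R26tdTom/tdTom;Nf1+/+ at both ages, so that they carried 1 Cre allele at the Prss56 locus, tdTomato at both R26 alleles and wild-type Nf1. The libraries labelled mutant, used below for side-by-side values, came from Prss56Cre/Cre;R26tdTom/tdTom;Nf1fl/fl mice of the same ages and shared no library with the controls. Cells were prepared from vertebrae T11 to L2 that showed tdTomato fluorescence, and cells stained for CD11b, CD31 or CD45 were discarded in the sort while tdTom+ cells were kept. tdTomato marks cells that expressed Cre from Prss56 and their descendants, and the chondrocytes seen here were sorted as such cells by fluorescence. The RNA counts do not check the lineage of each cell. The labels do not say how many animals entered a library. With 1 library per age no test was possible, and the 95% intervals below cover counting error only, not the spread between animals. The intervals of ratios also leave out the spread between cells.

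Chondrocytes make and maintain the matrix of cartilage, in which a network of type II, IX and XI collagen holds the large proteoglycan aggrecan and the water it binds. In the spine they sit in the cartilage endplates between vertebra and disc, in the inner annulus of the disc and in the growth plates, where they stop dividing, enlarge and switch to type X collagen before bone replaces them. Sox9 is the transcription factor that sets up this program, and Acan encodes the aggrecan core protein.

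The label was checked against marker genes. All 12 chondrocyte markers chosen for the check were detected at both ages, and 10 of the 12 were found in over 50% of cells at each age. Sox9 and Acan were among the 12 and were present in every cell by the rule, so they are no part of the check. Matn3 was found least often, in 13.7% of cells at 3 months and 19.1% at 12–16 months. Sox9 had 9644 UMIs (1167 CPM) at 3 months and 1867 (1427 CPM) at 12–16 months, and Acan had 29937 UMIs (3624 CPM) at 3 months and 5050 (3860.4 CPM) at 12–16 months. Both genes were used by the rule, and their levels are given as a description, with ratios at 12–16 over 3 months of 1.22 (1.16 to 1.28) for Sox9 and 1.07 (1.03 to 1.10) for Acan. Col2a1, the main cartilage collagen and no part of the rule, was found in 90.6% and 87.6% of cells. Prg4 (lubricin, a surface lubricant) was found in 80.4% and 78.7%. Of Krt8, Krt18, Krt19 and T, which mark notochord-derived cells of the disc centre, none had over 2 UMIs in either library. Cd24a, by which the paper with Sox9 named its intervertebral disc chondrocytes, was found in 91.1% of cells at 3 months and 87.6% at 12–16 months. Disc markers were therefore not absent as a whole. Of the passing cells 78.4% (75.2% to 81.3%) met the rule in the younger library and 65.9% (57.3% to 73.9%) in the older. Just inside the Acan limit were 16 and 9 cells with 3 or 4 Acan UMIs, and just outside were 7 and 5 cells with Sox9 and 1 or 2 Acan UMIs.

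The chondrocytes summed to 8260819 UMIs at 3 months and 1308144 at 12–16 months, with medians of 12638.5 and 11655 per cell, and no cell barcode was shared between libraries. A gene with no UMI could still be present at up to 0.363 CPM (counts per 1e+06 UMIs of the sum) at 3 months and 2.29 CPM at 12–16 months. Scrublet called 2 and 5 of the chondrocytes doublets, and these were kept. Markers of immune, endothelial, erythroid and muscle cells were low. Of 10 immune markers 3 were at 0 in both libraries, Ptprc among them, and the list summed to 3.99 and 14.5 CPM. The endothelial list summed to 3.15 and 1.53 CPM, the erythroid list to 4.72 and 17.6 CPM and the muscle list to 6.29 and 16.1 CPM, and the part of these cells in the results below was not tested. Cells with Xist UMIs and cells with UMIs of Y-linked genes were present at both ages, so both libraries held females and males. Xist was found in 83.5% of cells at 3 months and 74.2% at 12–16 months. Nf1 had 1104 UMIs (134 CPM) at 3 months and 190 (145 CPM) at 12–16 months (ratio 1.09, 0.927 to 1.27). In the libraries labelled mutant Nf1 had 159.8 CPM at 3 months, not below the control level, and 124 CPM at 12–16 months. The libraries read the 3′ end of transcripts, which may lie outside the part removed from Nf1 fl, so this level does not check the label, and these libraries are called by their labels. Prss56 had no UMI at either control age, and tdTomato had 73 UMIs at 3 months and 8 at 12–16 months, in 10.1% and 6.74% of cells.

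To ask which genes differed with age, UMIs were summed over the chondrocytes of a library, scaled to CPM, and compared gene by gene among the 12424 genes with at least 20 UMIs over both control sums. A gene was counted where its CPM differed by at least 2-fold and the interval of the ratio left out 1. At 12–16 months 760 genes were higher (6.12% of those tested) and 335 were lower (2.70%). The excess of higher over lower genes depended on the scaling and on the filter on low counts. Scaled by TMM (edgeR), which moved the median log2 ratio of all tested genes from 0.09 to -0.09, 513 genes were higher and 517 lower. Among genes with at least 100 UMIs the counts were 273 and 208, and without a filter on low counts 1147 and 335. The older sum held fewer UMIs, so a gene with few UMIs in all could pass upward but not downward. The shares of 6.12% and 2.70% carry this limit. Several abundant cartilage genes stayed within the 2-fold limit, while Mgp and Fn1, described below, did not. Col2a1 had a ratio of 1.03 (1.000 to 1.06), Chad (chondroadherin, a collagen-binding protein of cartilage) 0.998 (0.975 to 1.02) and Prg4 0.835 (0.823 to 0.846). Cytl1, a secreted cartilage factor and the most abundant transcript at 3 months, had 228079 UMIs (27609.7 CPM) at 3 months and 21213 (16216 CPM) at 12–16 months, a ratio of 0.587 (0.579 to 0.596). Comp, a matrix protein that links collagen fibres, had 57368 UMIs (6945 CPM) at 3 months and 5219 (3989.6 CPM) at 12–16 months, a ratio of 0.574 (0.558 to 0.591).

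**Figure D1:**
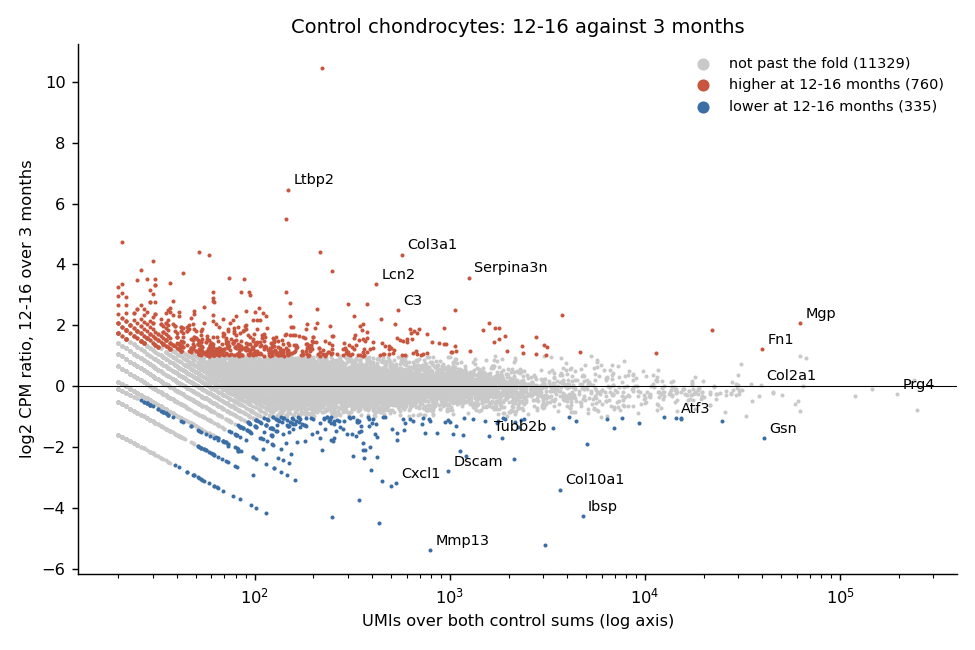
Control chondrocytes at 12–16 against 3 months. Each point is a gene with at least 20 UMIs over both sums, placed by those UMIs on a log axis and by its log2 CPM ratio, with a count of 0 set to 3. The 760 genes past the 2-fold limit upward (red) and 335 downward (blue) stand apart from the abundant cartilage genes such as Col2a1 and Prg4 near 0. The steps at the lower left are genes with few UMIs at 12–16 months.

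Because the older library held only 89 chondrocytes, the UMIs of a gene could come from a single cell. For each gene the cell with most of its UMIs was left out of the library in which the gene was higher. By this measure 314 of the 760 higher genes and 237 of the 335 lower genes still passed. In 64 of the higher genes and 16 of the lower genes over 50% of the UMIs of the higher library lay in 1 cell. The 15 highest ratios among named genes with at least 100 UMIs belonged to Ltbp2, Pcsk5, Col3a1, Corin, Serpina3n, Lcn2, Cck, Hist1h2ap, Gdf10, Serpina1c, C3, Sh2b2, Unc5c, Kcnd2 and Cda. For 5 of the 15 a single cell held over 50% of the UMIs at 12–16 months. Ltbp2, which encodes a latent TGF-beta binding protein of the matrix, had 10 UMIs at 3 months and 139 at 12–16 months, 131 of them in 1 cell. All 432 UMIs of Col3a1, a collagen of fibrous tissue, lay in 1 cell at 12–16 months, against 136 UMIs in 40 cells at 3 months. Hist1h2ap, a histone gene of dividing cells, had 74 of its 78 UMIs in 1 cell. These values describe single cells of the older library. The 15 lowest ratios belonged to Mmp13, Igfbp4, Tnc, Ibsp, Slpi, Col10a1, Hpgd, Cxcl1, Ihh, Fam155a, Tnn, Gpm6b, Dscam, Cxcl12 and Bmp5, and 5 of these 15 had over 50% of their 3-month UMIs in 1 cell. For Mmp13, a collagenase of hypertrophic cartilage, that cell held 771 of 786 UMIs, and for Cxcl12, a chemokine of marrow stroma, 347 of 384. The stroma list summed to 70.5 and 29.8 CPM, sums that include Cxcl12 itself. Without those cells Mmp13 and Cxcl12 were no longer lower.

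Serpina3n, Lcn2 and C3, among the 15 highest ratios, were each found in over 30 cells at 12–16 months. All 3 encode secreted proteins known from the acute-phase response and complement, for which no gene list of their own was set up. C3 and Lcn2 were members of the NF-kB and cytokine list described below. Of its 18 tested genes 4 were higher and 2 lower, with a median log2 ratio of -0.16. Serpina3n, a secreted inhibitor of serine proteases, lies on chromosome 12 from 104406729 to 104414329 on the plus strand of GRCm38 (mm10). It had 434 UMIs (52.5 CPM) at 3 months and 814 (622 CPM) at 12–16 months, a ratio of 11.8 (10.5 to 13.3), and was found in 155 of 562 cells (27.6%) and 44 of 89 (49.4%). The cell with most Serpina3n held 196 of the 814 UMIs, and without it the ratio was 8.99 (7.94 to 10.2). Lcn2 (lipocalin 2, an iron-siderophore binding protein) had 161 UMIs (19.5 CPM) at 3 months and 259 (198 CPM) at 12–16 months, a ratio of 10.2 (8.31 to 12.4), and was found in 74 of 562 cells (13.2%) and 32 of 89 (36.0%). C3, the central protein of the complement cascade, on chromosome 17 from 57203970 to 57228136 on the minus strand, had 286 UMIs (34.6 CPM) at 3 months and 255 (195 CPM) at 12–16 months, a ratio of 5.63 (4.74 to 6.69), and was found in 99 of 562 cells (17.6%) and 34 of 89 (38.2%). For C3 1 older cell held 87 of the 255 UMIs, the same cell that held 131 UMIs of Ltbp2. C4b, a complement protein of the classical pathway that was chosen for description after its values were seen, had 940 UMIs (114 CPM) at 3 months and 538 (411 CPM) at 12–16 months (ratio 3.61, 3.24 to 4.02). Serpina1a, a protease inhibitor of the alpha-1-antitrypsin family, was likewise chosen after its values were seen and had 14030 UMIs (1698 CPM) at 3 months and 7982 (6102 CPM) at 12–16 months (ratio 3.59, 3.49 to 3.69), and its relative Serpina1c had 560 UMIs (67.8 CPM) at 3 months and 506 (387 CPM) at 12–16 months (ratio 5.71, 5.05 to 6.45). The Serpina1 genes are near-identical copies, and how reads were divided among them is uncertain. Serpina3n, Lcn2, C3 and C4b also passed the limits upward in the libraries labelled mutant, at 11.7 (10.1 to 13.7), 2.70 (2.36 to 3.08), 4.57 (3.76 to 5.57) and 6.83 (6.01 to 7.78), while Serpina1a had 1.93 (1.89 to 1.98). Ptgs2 and Ptges, the cyclooxygenase and synthase that make prostaglandin E2, were higher as well, with 11 UMIs (1.33 CPM) at 3 months and 20 (15.3 CPM) at 12–16 months for Ptgs2 and 29 UMIs (3.51 CPM) at 3 months and 16 (12.2 CPM) at 12–16 months for Ptges, but in few cells.

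Depth and free RNA were compared for these genes because a UMI in a cell can come from RNA of other, broken cells. Among cells thinned to 3000 UMIs, with 9 and 8 shallower cells left out, Serpina3n was found in 11.4% (8.87% to 14.3%) at 3 months and 30.9% (21.1% to 42.1%) at 12–16 months, C3 in 7.05% (5.06% to 9.52%) at 3 months and 25.9% (16.8% to 36.9%) at 12–16 months and Lcn2 in 5.97% (4.14% to 8.28%) at 3 months and 24.7% (15.8% to 35.5%) at 12–16 months. In passing cells with no Sox9 UMI, 143 at 3 months and 39 at 12–16 months with median UMIs of 2078 and 13370, Serpina3n was found in 3.50% and 7.69%, C3 in 5.59% and 17.9% and Lcn2 in 2.10% and 15.4%. C4b was found in 18.9% and 48.7% of these cells against 31.5% and 51.7% of chondrocytes, so at 12–16 months its share of chondrocytes was close to that of cells without Sox9. Prg4 and Mgp, abundant in chondrocytes, were each found in 53.8% of the cells without Sox9 at 12–16 months, against 14.7% and 20.3% at 3 months. Col1a1, the bone and tendon collagen, was found in 9.96% and 46.1% of chondrocytes and in 23.8% and 82.1% of cells with no Sox9 UMI. Its share in chondrocytes was below that of the other cells at both ages, and whether free RNA gave its UMIs was not tested. In all, 177 of its 255 UMIs at 12–16 months lay in 1 chondrocyte. Among the thinned cells at 12–16 months, C3 was found in 13 of 25 cells with a Serpina3n UMI (52.0%, 31.3% to 72.2%) and in 8 of 56 without (14.3%, 6.38% to 26.2%), and Lcn2 in 11 of 25 (44.0%, 24.4% to 65.1%) and 9 of 56 (16.1%, 7.62% to 28.3%). At 3 months C3 was found in 11 of 63 cells with a Serpina3n UMI (17.5%, 9.05% to 29.1%) and in 28 of 490 without (5.71%, 3.83% to 8.15%). For C4b the shares at 12–16 months were 9 of 25 (36.0%, 18.0% to 57.5%) and 22 of 56 (39.3%, 26.5% to 53.2%). The intervals did not overlap for C3 at either age, and at 12–16 months they overlapped for Lcn2 and C4b. At 3 months Lcn2 was found in 11.1% (4.59% to 21.6%) of cells with a Serpina3n UMI and 5.31% (3.50% to 7.68%) without. Unc5c, used below to divide the cells, was found at 12–16 months in 0 of 25 (0% to 13.7%) and 14 of 56 (25.0%, 14.4% to 38.4%). The part of this makeup in the pairing of C3 with Serpina3n was not tested.

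**Figure D2:**
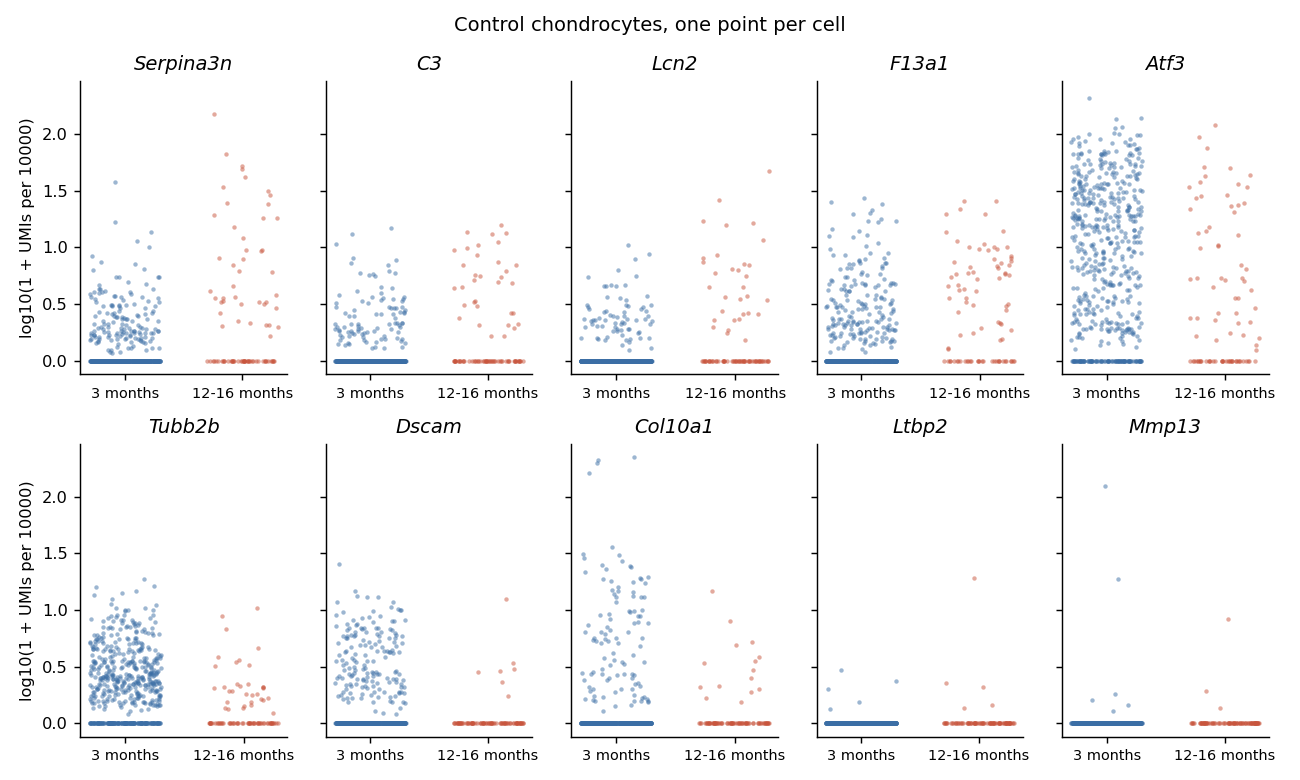
Each point is a control chondrocyte at 3 months (blue, 562 cells) or 12–16 months (red, 89 cells), and the vertical axis is log10 of 1 plus UMIs of the gene per 10000 UMIs of the cell. Serpina3n, C3, Lcn2 and F13a1 were spread over many older cells, Atf3, Tubb2b and Dscam over many younger cells, Col10a1 was found in 18.9% and 16.9% of cells with the highest values at 3 months, and Ltbp2 and Mmp13 were each carried by a few cells.

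The promoters of Serpina3n and C3 are shown because C3 was found more often in cells with Serpina3n at both ages. Each window runs from 250 bases before to 50 after the start of the gene, as RefSeq gives it on GRCm38.p6, and reads 5′ to 3′ on the strand of the gene. The motifs searched on both strands were TTCCNGGAA (STAT factors) and TTGCNNAA (C/EBP factors), and matches are in capitals. Of 32851 promoter windows of the same length, 1.15% held the STAT letters and 10.8% the C/EBP letters. C4b had no entry in the table.
Serpina3n, chr12:104406458-104406757, plus strand: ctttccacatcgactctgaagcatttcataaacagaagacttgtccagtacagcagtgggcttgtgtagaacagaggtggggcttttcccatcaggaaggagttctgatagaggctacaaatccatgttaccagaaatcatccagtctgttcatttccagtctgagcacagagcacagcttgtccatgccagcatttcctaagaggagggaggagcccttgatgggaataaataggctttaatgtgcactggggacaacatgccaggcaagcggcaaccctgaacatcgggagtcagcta
C3, chr17:57228087-57228386, minus strand: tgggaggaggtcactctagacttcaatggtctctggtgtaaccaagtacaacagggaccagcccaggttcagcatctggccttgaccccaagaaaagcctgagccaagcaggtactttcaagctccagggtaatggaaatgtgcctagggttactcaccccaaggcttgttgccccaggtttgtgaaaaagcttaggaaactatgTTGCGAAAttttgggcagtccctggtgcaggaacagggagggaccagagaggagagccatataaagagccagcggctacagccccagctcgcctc
The C3 window held 1 match to the C/EBP letters and none to the STAT letters. The Serpina3n window held neither, which says only that these letters are not in this window.

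Over the 5 matrix lists below, 9 of 81 tested genes were higher (11.1%, against 6.12% of all genes) and 4 lower (4.94%, against 2.70%). Of the 9, Fmod, Lum and Fn1 did not pass without their top cell. All UMIs of Col3a1, a further one in the fibrous list, lay in 1 cell at 12–16 months, so it could not pass without that cell. Most UMIs of Col1a1 at that age also lay in 1 cell, as given above, and without that cell Col1a1 stood within the 2-fold limit. Over all genes 314 of the 760 higher genes passed without their top cell. Of 7 cartilage collagens none passed (median log2 ratio 0.36). Col11a1, a collagen that nucleates the thin cartilage fibrils, had the ratio 1.28 (1.22 to 1.35). Of 14 tested proteoglycans and link proteins 3 were higher and none lower (median log2 ratio 0.09). Those higher were small leucine-rich proteoglycans, which bind collagen and set the width of its fibrils. Asporin (Aspn) had 675 UMIs (81.7 CPM) at 3 months and 282 (216 CPM) at 12–16 months (ratio 2.64, 2.29 to 3.04), lumican (Lum) 562 UMIs (68.0 CPM) at 3 months and 246 (188 CPM) at 12–16 months (ratio 2.76, 2.37 to 3.22) and fibromodulin (Fmod) 2075 UMIs (251 CPM) at 3 months and 683 (522 CPM) at 12–16 months (ratio 2.08, 1.90 to 2.27). For Fmod 395 of 683 UMIs at 12–16 months lay in 1 cell, and for Lum 128 of 246, and neither passed without that cell. Decorin (Dcn), an abundant member of the family, had 47269 UMIs (5722 CPM) at 3 months and 14836 (11341 CPM) at 12–16 months, a ratio of 1.98 (1.95 to 2.02) that stood just under the limit, and the link protein Hapln1 had 0.780 (0.746 to 0.816). Of 21 tested cartilage glycoproteins 3 were higher and 1 lower (median log2 ratio -0.21). Mgp, matrix Gla protein, an inhibitor of mineral deposition, had 37508 UMIs (4540.5 CPM) at 3 months and 25118 (19201 CPM) at 12–16 months, a ratio of 4.23 (4.16 to 4.30), and was the second most abundant transcript at 12–16 months, at 1.92% of all chondrocyte UMIs. Matrilin 3 (Matn3), which links collagen fibrils, had 1067 UMIs (129 CPM) at 3 months and 634 (485 CPM) at 12–16 months (ratio 3.75, 3.40 to 4.14). Fibronectin (Fn1) had 29211 UMIs (3536 CPM) at 3 months and 10689 (8171 CPM) at 12–16 months (ratio 2.31, 2.26 to 2.36), of which 1 cell at 12–16 months held 3597 of 10689 UMIs, and without that cell it did not pass. Tenascin C (Tnc) was lower, but 196 of its 247 UMIs at 3 months lay in 1 cell. Sparc, a collagen-binding protein of bone and cartilage, had the ratio 0.798 (0.784 to 0.813). Of 16 tested genes of fibrous and elastic matrix 2 were higher and 3 lower (median log2 ratio -0.20). Gelsolin (Gsn), an actin-severing protein with a secreted form, was the most abundant gene past the limit downward among these, with 38896 UMIs (4708 CPM) at 3 months and 1898 (1451 CPM) at 12–16 months (ratio 0.308, 0.294 to 0.323), and was found in 99.3% and 95.5% of cells. Dermatopontin (Dpt), which promotes collagen fibril assembly, had 347 UMIs (42.0 CPM) at 3 months and 13 (9.94 CPM) at 12–16 months (ratio 0.237, 0.125 to 0.410). Col6a1 and Col6a2, collagens of the matrix around each chondrocyte, had ratios of 0.799 (0.743 to 0.858) and 0.740 (0.687 to 0.796). Among 23 tested glycosaminoglycan enzymes 1 was higher and none lower (median log2 ratio 0.22), the member being Cemip, which takes part in hyaluronan breakdown, with 379 UMIs (45.9 CPM) at 3 months and 174 (133 CPM) at 12–16 months (ratio 2.90, 2.41 to 3.48).

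Several genes of hypertrophic cartilage and mineral had lower summed levels at 12–16 months. Of 13 tested members of the hypertrophy list none were higher and 5 lower (median log2 ratio -0.41). The shares over all tested genes were 6.12% higher and 2.70% lower. Ibsp (bone sialoprotein, which nucleates mineral) had 4755 UMIs (576 CPM) at 3 months and 39 (29.8 CPM) at 12–16 months (ratio 0.0518, 0.0368 to 0.0709) and Col10a1, the collagen that marks hypertrophic chondrocytes, had 3597 UMIs (435 CPM) at 3 months and 54 (41.3 CPM) at 12–16 months (ratio 0.0948, 0.0711 to 0.124). Ihh (Indian hedgehog, a signal from cells entering hypertrophy) had 439 UMIs (53.1 CPM) at 3 months and 8 (6.12 CPM) at 12–16 months (ratio 0.115, 0.0494 to 0.229), and Spp1 (osteopontin) had 23075 UMIs (2793 CPM) at 3 months and 1677 (1282 CPM) at 12–16 months (ratio 0.459, 0.436 to 0.482). The share of cells with at least 1 UMI did not show the same gap. Col10a1 was found in 106 of 562 cells (18.9%) and 15 of 89 (16.9%) and Ihh in 16 of 562 cells (2.85%) and 3 of 89 (3.37%). Ibsp was found in 90 of 562 cells (16.0%) and 14 of 89 (15.7%). Among thinned cells Col10a1 was found in 13.4% (10.7% to 16.5%) at 3 months and 8.64% (3.55% to 17.0%) at 12–16 months. For Ihh the thinned shares were 2.71% (1.53% to 4.43%) and 1.23% (0.0313% to 6.69%). These shares do not tell cells with few UMIs from cells with many, and the older cell with most Col10a1 held 16 UMIs. For Col10a1 a single 3-month cell held 1358 of 3597 UMIs and for Spp1 7893 of 23075. Without these cells Col10a1 still passed and Spp1 did not. The next highest 3-month cells held 674 and 390 Col10a1 UMIs, and the ratio without these as well was not computed. Pth1r, the receptor for parathyroid hormone and its related peptide, had 1.41 (1.27 to 1.58) and Prkg2, a kinase that promotes hypertrophy, 1.31 (1.15 to 1.48). The share of cells with Prkg2 was higher at 12–16 months, at 20.2% against 8.01% at 3 months. Among thinned cells its intervals did not overlap, at 5.24% (3.54% to 7.44%) at 3 months and 14.8% (7.90% to 24.4%) at 12–16 months. Panx3, also a hypertrophic marker, was found in 2.67% and 5.62% of cells. Osteocalcin (Bglap), a protein of bone, had 1168 UMIs (141 CPM) at 3 months and 38 (29.0 CPM) at 12–16 months (ratio 0.205, 0.145 to 0.284). In the libraries labelled mutant Ibsp had 0.353 (0.331 to 0.376) while Col10a1 had 2.78 (2.62 to 2.94) and Spp1 2.15 (2.10 to 2.21), so these genes did not move one way under both labels. Osteoblast markers, a list that holds Ibsp, Bglap and Col1a1, summed to 849 CPM at 3 months and 297 at 12–16 months. Ibsp itself gave 576 and 29.8 CPM of these sums, so they do not stand apart from its fall. The part of osteoblasts in the fall of Ibsp was not tested. Of 17 tested matrix proteases and inhibitors 1 was higher and 6 lower (median log2 ratio 0.03). The aggrecan- and versican-cleaving protease Adamts1 had 244 UMIs (29.5 CPM) at 3 months and 12 (9.17 CPM) at 12–16 months (ratio 0.311, 0.158 to 0.552), and Plau (urokinase) 82 UMIs in 7 cells at 3 months and none at 12–16 months. Mmp2, a gelatinase, was higher with 34 UMIs (4.12 CPM) at 3 months and 27 (20.6 CPM) at 12–16 months (ratio 5.01, 2.91 to 8.56). Htra1, a secreted serine protease, had the ratio 1.02 (0.963 to 1.08) and Timp3, an inhibitor of matrix proteases, 1.77 (1.67 to 1.86).

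Several early response genes were lower at 12–16 months. Genes of this kind are switched on within minutes by growth factors, stress or the dissociation of tissue. Of 29 tested members none were higher and 5 lower (median log2 ratio -0.57), against a median of 0.09 over all genes, and 28 of the 29 had a log2 ratio below 0. Over all tested genes 6.12% were higher and 2.70% lower. Klf2, a transcription factor induced by fluid flow, had 14246 UMIs (1725 CPM) at 3 months and 1073 (820.2 CPM) at 12–16 months (ratio 0.476, 0.447 to 0.506), Atf3, of the stress response, 13383 UMIs (1620.1 CPM) at 3 months and 1025 (784 CPM) at 12–16 months (ratio 0.484, 0.453 to 0.515), Ier3 4146 UMIs (502 CPM) at 3 months and 301 (230.1 CPM) at 12–16 months (ratio 0.458, 0.406 to 0.515) and Egr2, of the growth factor response, 283 UMIs (34.3 CPM) at 3 months and 15 (11.5 CPM) at 12–16 months (ratio 0.335, 0.185 to 0.562). Fos had the ratio 0.674 (0.655 to 0.693) and Junb 0.805 (0.779 to 0.831), both abundant at the 2 ages. Among thinned cells Atf3 was found in 68.0% (63.9% to 71.9%) at 3 months and 45.7% (34.6% to 57.1%) at 12–16 months. Each age was 1 library, and age cannot be told apart from the handling of that library. In the libraries labelled mutant none of these 4 genes passed, with ratios of 0.825 (0.786 to 0.867) for Klf2, 1.00 (0.944 to 1.07) for Atf3, 1.14 (1.04 to 1.25) for Ier3 and 0.839 (0.611 to 1.14) for Egr2. Of 18 tested genes of the NF-kB and cytokine list 4 were higher and 2 lower (median log2 ratio -0.16), with C3, Lcn2, Ptgs2 and Ptges the members that were higher. Cxcl1, a neutrophil chemokine of the same list, was lower, with 518 UMIs (62.7 CPM) at 3 months and 9 (6.88 CPM) at 12–16 months (ratio 0.110, 0.0499 to 0.210), and Cxcl2 had 74 of its 82 UMIs in 1 cell at 3 months. Nfkbia, the inhibitor that NF-kB itself induces, had the ratio 0.640 (0.593 to 0.691) and Nfkbiz 0.895 (0.806 to 0.991). A pair of genes linked to calcineurin was chosen after the values were seen. Nfatc2, a transcription factor activated by calcineurin and a member of the skeletal factor list, had 1639 UMIs (198 CPM) at 3 months and 112 (85.6 CPM) at 12–16 months (ratio 0.432, 0.353 to 0.523) and was found in 60.3% and 36.0% of cells. Rcan1, a calcineurin regulator that is itself induced by the pathway, had 1092 UMIs (132 CPM) at 3 months and 40 (30.6 CPM) at 12–16 months (ratio 0.231, 0.164 to 0.317).

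Among genes of signals that shape cartilage, BMP and TGF-beta family members moved in both directions. Of 31 tested members 7 were higher and 4 lower (median log2 ratio 0.10). Beside this and the lists below, 6.12% of all tested genes were higher and 2.70% lower. The ligands Bmp6, Bmp2 and Bmp5 were lower. Bmp6, which hypertrophic chondrocytes make, had 2102 UMIs (254 CPM) at 3 months and 131 (100.1 CPM) at 12–16 months (ratio 0.394, 0.327 to 0.470) and was found in 71.9% and 49.4% of cells, Bmp2 had 726 UMIs (87.9 CPM) at 3 months and 55 (42.0 CPM) at 12–16 months (ratio 0.478, 0.357 to 0.630) and Bmp5 122 UMIs (14.8 CPM) at 3 months and 3 (2.29 CPM) at 12–16 months (ratio 0.155, 0.0316 to 0.465). Inhba, the subunit of activin A, had 938 UMIs (114 CPM) at 3 months and 66 (50.5 CPM) at 12–16 months (ratio 0.444, 0.341 to 0.571), and 440 of its 938 UMIs at 3 months lay in 1 cell. Gdf5, the ligand of joint and disc cells, was higher with 182 UMIs (22.0 CPM) at 3 months and 67 (51.2 CPM) at 12–16 months (ratio 2.32, 1.73 to 3.09), as were Gdf10 with 148 UMIs (17.9 CPM) at 3 months and 153 (117 CPM) at 12–16 months (ratio 6.53, 5.17 to 8.24), the BMP antagonist Chrdl1 with 244 UMIs (29.5 CPM) at 3 months and 133 (102 CPM) at 12–16 months (ratio 3.44, 2.77 to 4.27) and Tgfb2 with 131 UMIs (15.9 CPM) at 3 months and 54 (41.3 CPM) at 12–16 months (ratio 2.60, 1.86 to 3.60). The target Id3 had the ratio 0.718 (0.661 to 0.779) and the co-receptor Tgfbr3 1.26 (1.18 to 1.35). Of 8 tested hedgehog genes 1 was higher and 1 lower (median log2 ratio 0.43). The receptor and target Ptch1 was higher, with 1180 UMIs (143 CPM) at 3 months and 510 (389.9 CPM) at 12–16 months (ratio 2.73, 2.46 to 3.03), while its ligand Ihh was lower and the transducers Smo and Gli2 had ratios of 1.03 (0.898 to 1.17) and 0.942 (0.772 to 1.14). Of 14 tested WNT genes none were higher and 1 lower (median log2 ratio 0.35), the member being Wnt5a with 40 UMIs (4.84 CPM) at 3 months and 1 (0.764 CPM) at 12–16 months (ratio 0.158, 0.00390 to 0.932). The secreted inhibitors Wif1 and Sfrp5 had 0.748 (0.681 to 0.821) and 0.608 (0.523 to 0.704). Of 22 tested skeletal transcription factors 3 were higher and 3 lower (median log2 ratio 0.20). Runx3, which drives chondrocyte maturation, had 421 UMIs (51.0 CPM) at 3 months and 182 (139 CPM) at 12–16 months (ratio 2.73, 2.28 to 3.26), Nkx3-2, which holds it back, 35 UMIs (4.24 CPM) at 3 months and 16 (12.2 CPM) at 12–16 months (ratio 2.89, 1.49 to 5.36) and Barx2 26 UMIs (3.15 CPM) at 3 months and 11 (8.41 CPM) at 12–16 months (ratio 2.67, 1.19 to 5.60). The forkhead factors Foxa2 and Foxa3, which act in hypertrophic differentiation, were lower with 95 UMIs (11.5 CPM) at 3 months and 3 (2.29 CPM) at 12–16 months for Foxa2 (ratio 0.199, 0.0404 to 0.601) and 354 UMIs (42.9 CPM) at 3 months and 28 (21.4 CPM) at 12–16 months for Foxa3 (ratio 0.499, 0.327 to 0.735). Zbtb20 and Trps1, the most abundant factors of the list, had ratios of 0.864 (0.831 to 0.898) and 1.08 (1.04 to 1.13). For the other signal lists, 1 of 11 tested IGF genes was higher and 2 lower, none of 6 FGF genes passed, and 1 of 13 genes of MAPK feedback was lower.

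None of 76 tested genes of oxidative phosphorylation passed (median log2 ratio -0.10), and none of 26 antioxidant, 18 autophagy, 25 Hox or 11 glucocorticoid target genes. Among all tested genes 6.12% were higher and 2.70% lower. Of 77 ribosomal protein genes 1 passed, Rps27, with 1856 UMIs (225 CPM) at 3 months and 898 (686 CPM) at 12–16 months (ratio 3.06, 2.82 to 3.31). Rps27 has near-identical copies, and the division of reads among them is uncertain. Of 30 tested genes of the endoplasmic reticulum and collagen folding 1 was higher and 2 lower (median log2 ratio -0.13), and of 27 genes of glycolysis and hypoxia 1 was higher and 2 lower (median log2 ratio -0.14). Of 18 interferon and antigen presentation genes none were higher and 1 lower (median log2 ratio -0.04). Of 15 lipid genes 1 was higher and 1 lower (median log2 ratio -0.00), and Apoe, the abundant apolipoprotein, had 30448 UMIs (3686 CPM) at 3 months and 2446 (1869.8 CPM) at 12–16 months, a ratio of 0.507 (0.487 to 0.529) just above the lower limit. Of 19 clock genes none were higher and 1 lower (median log2 ratio -0.04), the member being Dbp, a transcription factor with a strong daily rhythm, with 906 UMIs (109.7 CPM) at 3 months and 67 (51.2 CPM) at 12–16 months (ratio 0.467, 0.359 to 0.599). The hour at which animals were taken is not given in the sources used here. In the libraries labelled mutant Dbp had 0.354 (0.278 to 0.446). Of 15 tested genes of senescence and p53 none were higher and 1 lower (median log2 ratio 0.27), the member being Gdf15, with 56 UMIs at 3 months and none at 12–16 months. Cdkn1a (p21) had the ratio 0.812 (0.724 to 0.908) and Hmgb1 1.22 (1.11 to 1.34). Cdkn2a, the gene of the senescence marker p16, was below the 20-UMI limit, with 3 UMIs in 3 of 562 cells at 3 months and 8 UMIs in 4 of 89 cells at 12–16 months (0.534%, 0.110% to 1.55%, against 4.49%, 1.24% to 11.1%). None of the 8 UMIs lay in cells without Unc5c, and in the libraries labelled mutant Cdkn2a had 5 and 43 UMIs. Of 19 cell cycle genes 4 were higher and none lower (median log2 ratio 0.21), but all 28 UMIs of Mki67 at 12–16 months lay in 1 cell, and Ccnd1, Mcm3, Mcm5 and Mki67 all failed to pass without their top cell.

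**Figure D3:**
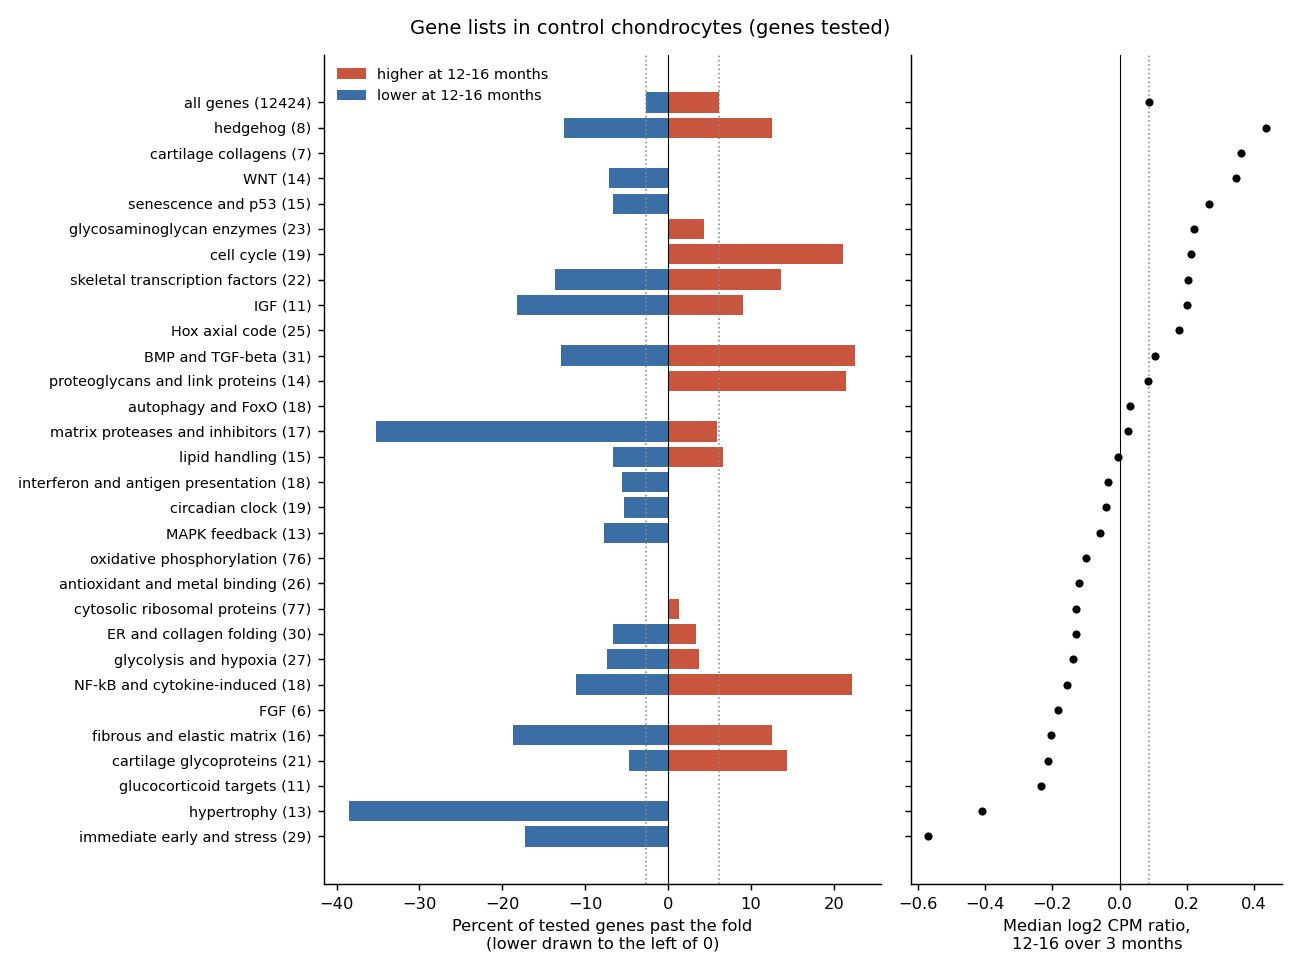
Gene lists in control chondrocytes, with the number of tested genes in parentheses. Left, the percent of each list past the 2-fold limit upward (red) or downward (blue, drawn left of 0). Right, the median log2 CPM ratio at 12–16 over 3 months. Dotted lines mark all 12424 tested genes (6.12% higher, 2.70% lower, median 0.09). Of the lists drawn, hypertrophy and early response genes had the lowest medians, and lists of other cell types and of disc and notochord markers are not drawn.

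The makeup of the chondrocytes was described by the share of cells with a UMI of subset markers. Unc5c, a netrin receptor gene, was found in 67 of 562 cells at 3 months (11.9%, 9.36% to 14.9%) and in 18 of 89 at 12–16 months (20.2%, 12.4% to 30.1%). Thinned to 3000 UMIs the shares were 8.68% (6.47% to 11.3%) at 3 months and 17.3% (9.78% to 27.3%) at 12–16 months. Unc5c was taken as the divider after the data were seen. At 12–16 months the cells with an Unc5c UMI had 53939.6 CPM of Mgp against 1701 CPM in the other cells, 1442 CPM against 2.30 CPM of Matn3 and 415 CPM against 0 CPM of Runx3. The endplate subset markers Kcnd2, Zfp804b and Dab1 were found in 3.56% and 6.74%, 3.74% and 8.99% and 5.34% and 11.2% of cells. Prg4 and Smoc2, markers of fibrochondrocytes, were found in 80.4% and 78.7% and in 64.1% and 71.9%, while Cilp2, of the same subset, had intervals that did not overlap, at 72.6% (68.7% to 76.2%) and 52.8% (41.9% to 63.5%). The disc subset markers Sfrp5, Adamtsl2, Chrdl2 and Meox2 had overlapping intervals at the 2 ages. Cd24a, the disc marker of the paper, was found in 91.1% (88.4% to 93.3%) and 87.6% (79.0% to 93.7%). Among thinned cells its intervals did not overlap, at 70.7% (66.7% to 74.5%) at 3 months and 55.6% (44.1% to 66.6%) at 12–16 months. The cells with Unc5c were deeper, with median UMIs of 18336 and 26293, and gave 438231 of the 1308144 UMIs at 12–16 months against 1347599 of 8260819 at 3 months. Summed levels over all chondrocytes therefore carry this makeup. In bulk sums of this kind more cells of a subset and more RNA per cell cannot be told apart.

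Within the cells that had no Unc5c UMI, 495 at 3 months and 71 at 12–16 months, 509 of 11760 tested genes were higher (4.33%) and 301 lower (2.56%), of which 325 and 158 were also counted over all chondrocytes. Several matrix and signal genes no longer passed in these cells. Ptch1 had a ratio of 1.17 (0.913 to 1.47), Gdf10 1.03 (0.263 to 2.90), Chrdl1 1.59 (0.395 to 4.74), Corin 1.32 (0.0288 to 10.9) and Sh2b2 1.59 (0.0336 to 14.2), and Matn3 was lower at 0.0641 (0.00772 to 0.234). The ligands Bmp6 and Bmp2, lower over all chondrocytes, had log2 ratios of -0.94 and -0.49 in these cells, within the 2-fold limit. Of 30 BMP and TGF-beta genes tested in these cells 3 were higher and 1 lower. Mgp had a ratio of 2.11 (1.99 to 2.23), from 806 CPM at 3 months and 1701 at 12–16 months. Serpina3n, Lcn2, C3 and C4b passed in these cells too. Serpina3n had 59.6 CPM at 3 months and 897 at 12–16 months in these cells (ratio 15.05, 13.3 to 17.0), Lcn2 a ratio of 12.99 (10.6 to 16.0), C3 7.18 (6.03 to 8.54) and C4b 3.61 (3.19 to 4.09). F13a1 (the A subunit of coagulation factor XIII, a transglutaminase that crosslinks proteins) had 79.4 CPM at 3 months and 475 at 12–16 months (ratio 5.98, 5.25 to 6.80), and Fxyd2, a regulator of the sodium pump, 54.8 CPM at 3 months and 251 at 12–16 months (ratio 4.57, 3.85 to 5.41). Both were among the 15 highest of these cells. F13a1 was found in 191 of 562 cells (34.0%) and 58 of 89 (65.2%) over all chondrocytes, against 6.29% and 7.69% of cells with no Sox9 UMI. Among genes lower in these cells, Tubb2b, a beta-tubulin, had 197 CPM at 3 months and 40.2 at 12–16 months (ratio 0.204, 0.142 to 0.285) and was found in 393 of 562 cells (69.9%) and 33 of 89 (37.1%) over all chondrocytes. Dscam, a homophilic adhesion molecule best known from neurons, had 132 CPM at 3 months and 25.3 at 12–16 months (ratio 0.192, 0.120 to 0.292) and was found in 168 of 562 cells (29.9%) and 7 of 89 (7.87%). G0s2, an inhibitor of fat breakdown, had 49.0 CPM at 3 months and 3.45 at 12–16 months (ratio 0.0703, 0.0144 to 0.207). Col10a1 and Ibsp remained lower, at 0.353 (0.259 to 0.472) and 0.0619 (0.0338 to 0.104), while Bglap had 1.75 (1.08 to 2.74) and Spp1 0.851 (0.808 to 0.895). Of the early response genes 2 of 28 tested were lower in these cells, with a median log2 ratio of -0.25, and Atf3 had 0.625 (0.586 to 0.667). In the cells with an Unc5c UMI, 18 at 12–16 months, the log2 ratio was 0.04 for C3, 1.30 for Lcn2 and 2.05 for C4b. Over all chondrocytes these were 2.49, 3.34 and 1.85. Without cells with Prg4 or Cilp2 the log2 ratio of Serpina3n was 1.09, against 3.57 over all chondrocytes.

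The same age contrast was computed in the libraries labelled mutant. Their cells also differed in sex, with Xist in 98.9% of cells at 3 months and 79.5% at 12–16 months and UMIs of Y-linked genes in 0.796% and 9.30%, and the part of sex in these ratios was not tested. At 12–16 months 582 of 12445 tested genes were higher (4.68%) and 675 lower (5.42%). Of the 710 control-higher genes tested in both, 99 were higher (13.9%, or 19.4% of the mutant-labelled calls tested in both) and 102 lower, and of the 304 control-lower genes 48 were lower (15.8%, or 8.60% of the calls) and 36 higher. Among cells with no Unc5c UMI, 207 and 194 in number in these libraries, 347 of 10477 tested genes were higher (3.31%) and 464 lower (4.43%). Here 84 of 401 control-higher genes were also higher (20.9%, or 25.5% of the calls) and 32 were lower, and 47 of 265 control-lower genes were also lower (17.7%, or 11.1% of the calls) and 11 were higher. Among the genes higher in both label groups without Unc5c were Serpina3n, C3, C4b, F13a1, Fxyd2, Cck, Cda, Pcsk5 and Fn1, with ratios in the libraries labelled mutant of 8.13 (6.99 to 9.50) for Serpina3n, 2.97 (2.44 to 3.64) for C3, 7.30 (6.20 to 8.63) for F13a1 and 4.63 (3.84 to 5.61) for Fxyd2. Over all control chondrocytes Fn1 did not pass without its top cell. Cck, the gene of the peptide hormone cholecystokinin, had 62 UMIs (7.51 CPM) at 3 months and 83 (63.4 CPM) at 12–16 months over all control chondrocytes, Cda (cytidine deaminase) 85 UMIs (10.3 CPM) at 3 months and 66 (50.5 CPM) at 12–16 months and Pcsk5, a proprotein convertase, 49 UMIs (5.93 CPM) at 3 months and 166 (127 CPM) at 12–16 months. Among the genes lower in both were Dscam and Tubb2b, at 0.264 (0.176 to 0.384) and 0.381 (0.302 to 0.476). Of the 15 leading lower genes without Unc5c, 2 also passed downward in the libraries labelled mutant and 2 passed upward. For the 15 leading higher genes, 11 also passed upward and 0 downward. The difference between the labels was not tested, since each combination of label and age was 1 library.

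**Figure D4:**
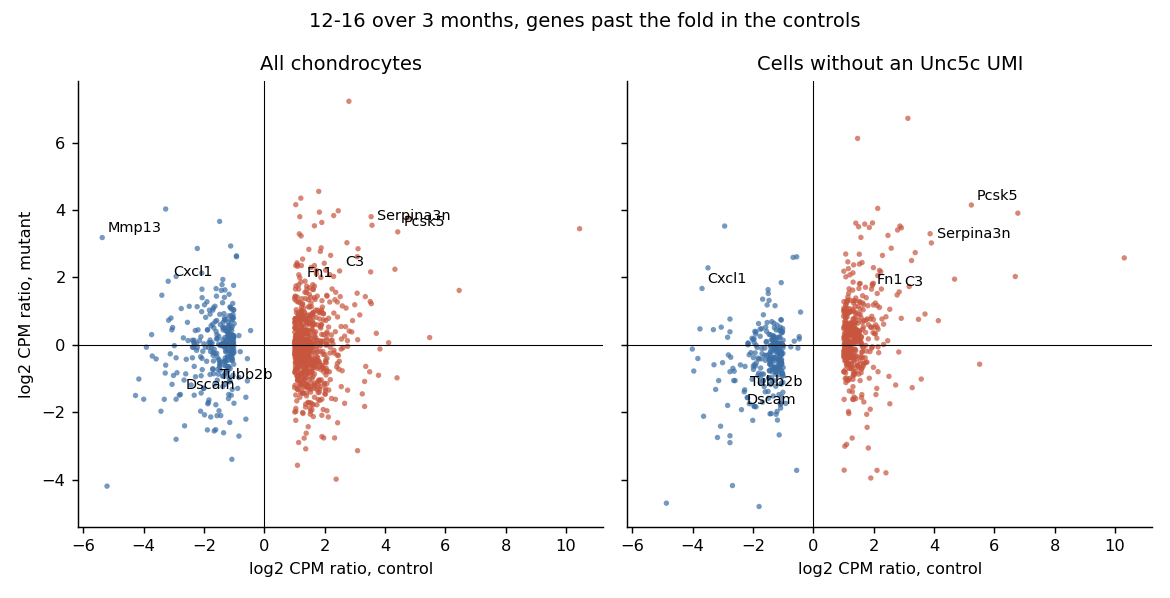
Log2 CPM ratio at 12–16 over 3 months in the libraries labelled mutant against that in the controls, for genes past the limit in the controls (red higher, blue lower) and tested in both. Over all chondrocytes (left) the higher genes lie on both sides of 0 on the vertical axis (99 higher, 102 lower by the limits). Without Unc5c cells (right) 84 are higher and 32 lower.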

How the data were processed

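The authors sorted cells, made 10x 3′ libraries, and counted reads with Cell Ranger 8.0.0 against mm10, per the file headers and the study's methods. The deposited values were raw counts of UMIs per gene and cell for 32286 genes, and SoupX correction of free RNA was not applied here. Cells were kept with over 750 UMIs, over 500 genes and under 7% mt- UMIs, then with at least 1 Sox9 and 3 Acan UMIs. Scrublet in scanpy 1.11.5 (expected rate 6%) marked doublets, which were removed only in an alternative. UMIs were summed per library and scaled to CPM. With 1 library per condition there was no test. The 95% interval of a ratio came from the exact binomial split of a gene's UMIs given both totals, that of a share from Clopper-Pearson. A count of 0 allows up to 3 counts. The calculation was tested on simulated library sums drawn with counting error only. That test held no spread between cells and says nothing of genes whose UMIs lie in few cells.

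The members and gene lists were chosen with earlier results of these data known. Named genes were Sox9, Acan, Nf1, Prss56, tdTomato, subset and cell type markers, the 15 highest and 15 lowest ratios with at least 100 UMIs, without ribosomal protein, mitochondrial, hemoglobin, immunoglobulin, sex-linked and predicted genes, and, of each list, up to 4 passing members per direction with most UMIs and the 2 most abundant others. Further genes of the lists, and those said to be, were chosen after their values were seen. Alternatives included the factors of edgeR 4.0.16 (TMM) and DESeq2 1.42.0. Leaving out the top cell and the splits by Unc5c and Xist were added after seeing the data. Promoters came from RefSeq on GRCm38.p6. A gene that the rule named is not reported here.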

Additional observations from a re-analysis of the deposited data

Results flagged for a closer look

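For 4 of the leading genes the age contrast pointed in opposite directions under the 2 labels, past the limits in both, and the difference was not tested, since each combination of label and age was 1 library. Col10a1, the collagen of hypertrophic cartilage, had a ratio of 0.0948 at 12–16 over 3 months in the controls and 2.78 in the libraries labelled mutant. In control chondrocytes at 3 months its highest counts were 1358, 674 and 390 UMIs, each in 1 cell. Cxcl1, a neutrophil chemokine, had 0.110 and 3.70. Cxcl12, a chemokine of stroma, had 0.148 and 2.11, and 347 of its 384 UMIs in control chondrocytes at 3 months lay in 1 cell. Mmp13, a collagenase, had 0.0241 and 9.09, and 771 of its 786 UMIs at 3 months lay in 1 cell.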

How the results depend on the processing

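The 335 genes lower at 12–16 months became 517 with TMM factors and 517 with DESeq2 factors, and the 760 higher genes 513 and 512. These factors lowered the median log2 ratio of all genes by 0.18. Without a filter on low counts the 760 higher genes became 1147 (335 lower), and with at least 100 UMIs 273 (208 lower). They became 1443 (692 lower) at a fold of 1.5 and 279 (166 lower) at a fold of 3. In thinned cells they were 343 (198 lower), and without cells with Prg4 or Cilp2 377. Without the top cell of each gene they were 314, and in cells with Unc5c 433 (522 lower). Fewer genes or cells entered several of these settings by construction, and genes with few UMIs could not pass downward. Otherwise the cause was not tested. Of the 30 leading genes, 20 changed sign under none of the alternatives run.

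Among named genes past the limits, the log2 ratios that changed sign were as follows. With at least 1 Acan UMI they were 0.0205 for Bmp5, 0.14 for Mmp13 and 2.98 for Tnc. In thinned cells they were -0.40 for Ccnd1 and -0.56 for Fmod. In cells with Unc5c they were -0.0798 for Cda, -0.0843 for F13a1, -0.60 for Pcsk5, -1.07 for Lum, -1.90 for Fn1, -3.33 for Igfbp6, 1.30 for Cxcl1 and 2.84 for Cxcl12. In cells without Unc5c they were -3.96 for Matn3, 0.41 for Fam155a and 0.81 for Bglap. In cells with Xist they were -0.0626 for Fmod, -0.26 for Col1a1 and -2.70 for Col3a1. Without cells with Col10a1 or Ihh they were -0.24 for Gdf5 and 0.21 for Bglap. Without cells with Kcnd2 or Zfp804b they were -0.76 for Fmod and -2.51 for Col3a1. Without cells with Prg4 or Cilp2 they were -0.0141 for Dab1, -0.62 for Pcsk5, -0.74 for Lum, -0.87 for F13a1, -1.56 for Gdf5, -1.90 for Fn1, 0.0040 for Dbp, 0.0211 for Cxcl1, 0.0211 for Inhba and 2.61 for Cxcl12. Without the top cell they were -0.19 for Fmod, -1.55 for Hist1h2ap, 0.34 for Mmp13 and 0.62 for Cxcl12. Of 38 named genes not past the limits, 23 had log2 ratios on both sides of 0 over the settings, among them Dcn at -1.77 and Cytl1 at 0.28 without cells with Prg4 or Cilp2.

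No paired analysis was possible because each condition was 1 library and no result comes from a test, and for the same reason no replicate could be left out. With 89 older chondrocytes, a gene with no UMI at 12–16 months could still be present at up to 2.29 CPM.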

Other observations

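A pair of genes with names of uncharacterised or predicted genes, chosen after their values were seen, moved in the same direction under both labels. 1520401A03Rik, on chromosome 17 from 23704488 to 23722783 on the minus strand, had 3051 UMIs in control chondrocytes at 3 months and 13 at 12–16 months (ratio 0.0269, 0.0143 to 0.0461), and was found in 33.1% and 10.1% of cells. In the libraries labelled mutant it had 112 and 3 UMIs (ratio 0.0547, 0.0111 to 0.164). Gm10260, on chromosome 13 from 97760072 to 97760632 on the minus strand, had 1 UMI at 3 months and 221 at 12–16 months in the controls, and 219 and 1169 in the libraries labelled mutant (ratio 10.9, 9.43 to 12.6). Both genes also differed between the labels at 3 months. Control against mutant-labelled UMIs were 3051 and 112 for 1520401A03Rik and 1 and 219 for Gm10260, of 8260819 and 5844950 in all. The part of strain background, library and free RNA in these values was not tested.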
